A study of Mus musculus with 9 samples.

Results

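SMAD1 occupancy in the BV line was compared between 36 h and 12 h, at the places in the genome where either library was enriched over input. Windows of the 19 autosomes (mm9, coordinates as deposited) were taken where the 12 h or the 36 h library stood at 3-fold or more over the BV input. These were 472 of 2240703 usable windows (0.0211%), and overlapping or adjoining windows were merged into 244 regions. For comparison, 1670 regions reached 3-fold in at least 1 of the 6 immunoprecipitated libraries of the series. The choice used the same 2 libraries that were then compared, so the share of regions past 3-fold is a description. Regions chosen by other libraries are given further on.

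The libraries are chromatin immunoprecipitation followed by sequencing (ChIP-seq) of mouse cells. Both SMAD1 libraries and the input came from BV, a Blimp1-mVenus reporter line on the C57BL/6 strain, in which a fluorescent protein reports the germ cell gene Blimp1. The SMAD1 libraries are titled 12 h and 36 h, and the BV input carries no time in its title. Embryonic stem cells had first been made into epiblast-like cells (EpiLC) and these were cultured in suspension, per the labels' protocols, with leukaemia inhibitory factor, with BMP4 and WNT3A present or absent. The labels call the cells EpiLC in every library, and do not say which library received BMP4 or WNT3A or from which step the hours were counted. Also used are SMAD1 at 24 h and TCF1, both in BV, and SMAD1 at 36 h, T and an input in PV, a Prdm14-mVenus reporter line on the same strain. Each group is 1 library of a reporter line, and whether cultures were pooled is not given in the sources used here. No difference below has a replicate check, and no p-value can be given for the time points.

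SMAD1 is a receptor-activated transcription factor of the bone morphogenetic protein (BMP) pathway. BMP receptors phosphorylate it, it joins SMAD4, and the complex enters the nucleus and binds DNA with partner factors. BMP4 from neighbouring tissue is the signal by which epiblast cells of the mouse embryo acquire the germ cell fate, and the culture of EpiLC with BMP4 was built on this. Binding of receptor-activated SMADs is known to depend on continued signalling and on feedback inhibitors.

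The 12 h library of SMAD1 held 18180163 reads, the 36 h library 14925074 and the BV input 134657262, counted over every other window because windows of 2 kb step by 1 kb. A typical window held 15.1 reads at 12 h, 12.4 at 36 h and 112 in the input. Enrichment is the scaled count over the scaled input, each with a pseudocount of 0.5, and a value of 1 is the level of the input. Over all usable windows the median of the 36 h over 12 h factor was 1.00. As a control, the PV and BVSC inputs (BVSC is a second input labelled as the BV line) were thinned to the 36 h depth and set over the BV input. They reached 3-fold in 171 and 57 windows, which formed 4 and 23 regions. The 36 h library itself reached it in 74 windows, so by number alone it does not stand out from the inputs. None of the input windows was among those at 3-fold or more in the 36 h library. The BVSC counts were made by another rule than the rest, since 47.3% of the 1 kb bins rebuilt from its overlapping windows came out below 0, against 0% in each of the other 8 libraries. It entered the mean of the 3 inputs, by which usable windows and those that set the scale were chosen, but not the enrichments. No gene is assigned to a region, because the gene tables used here are of another genome build than the mm9 coordinates of the files.

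At sites of 3-fold or more at 12 h, SMAD1 enrichment was lower at 36 h at nearly every site, and at most of them it stayed above input. With a threshold of 2 in place of 3, the share of 12 h regions under 1.5-fold at 36 h was 67.6%, and 1699 of 3174 regions had an interval that was not wholly below 1. Of the 244 regions, 233 were at 3-fold or more at 12 h, and 0.0204% of usable windows were. Among these 233, the 36 h enrichment was at 3-fold or more in 37 (15.9%, exact 95% interval 11.4 to 21.2), from 2- to under 3-fold in 70 (30.0%), from 1.5- to under 2-fold in 78 (33.5%) and under 1.5-fold in 48 (20.6%, 15.6 to 26.4). In the whole genome 0.00330% of usable windows were at 3-fold or more at 36 h, 0.0500% at 2-fold or more and 2.80% at 1.5-fold or more. The 2 intervals of shares take regions as independent and give no error of the time comparison. The split at 1.5-fold falls where single regions cannot be ordered at the 36 h depth. The remaining 11 of the 244 regions were at 3-fold at 36 h and below it at 12 h. In these bulk samples, with 1 library per time point, fewer bound cells and less binding per cell cannot be told apart. Nor can either be told from a difference in yield between the 2 immunoprecipitations.

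The median 36 h over 12 h factor at the 233 regions was 0.451 (interval of the median from binomial ranks over regions, 0.434 to 0.469), which is 2.22-fold lower. The middle 50% of factors lay between 0.386 and 0.533, and all lay between 0.186 and 1.04. Of the 233, 156 (67.0%) were lower by 2-fold or more, against 0.806% of all usable windows, and 37 were lower by 3-fold or more. At any size of difference, 231 were lower and 2 higher, whereas 50.0% of all usable windows were lower. Because the same input divides both libraries, it cancels in the factor and in the plain ratio of the 2 SMAD1 counts. The exact interval of that ratio, which covers counting error only, lay wholly below 1 in 223 of the 233 regions and included 1 in the other 10. In the genome 2.40% of usable windows had an interval wholly below 1. The 233 were chosen by the same 12 h counts, so these shares describe them and are no test of a difference.

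**Figure D1:**
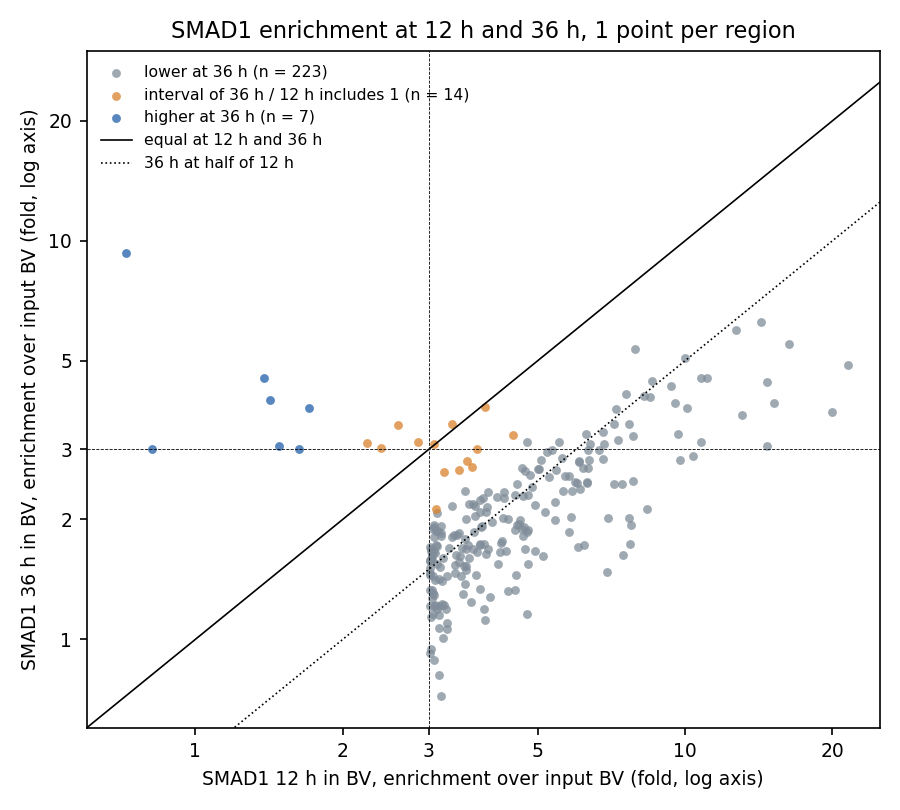
Enrichment over the BV input at 12 h (x axis) and 36 h (y axis), in fold on log axes, for the 244 regions, coloured by the exact interval of the plain ratio of 36 h to 12 h. Most of the 223 regions that were lower at 36 h lie near the dotted line that is 2-fold below equality, the 14 whose interval includes 1 lie between 2.24 and 4.46 at 12 h, and the 7 whose interval lies wholly above 1 are under 2-fold at 12 h. In all, 13 regions lie above the line of equality.

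The share of signal left can also be read above input, as the 36 h enrichment minus 1 over the 12 h enrichment minus 1. Its median was 28.0% (26.1 to 30.9 by ranks over regions), with the middle 50% of regions between 19.6 and 38.4%. This share changed little with the strength of the site. At 12 h enrichments from 3 to under 4 it was 26.4% (n = 117), from 4 to under 6 it was 29.4% (n = 59), from 6 to under 10 it was 32.7% (n = 42), and at 10 or more it was 24.9% (n = 15). The factor itself was 0.483 in the weakest of these groups and 0.300 in the strongest, because the input level of 1 is a larger part of a weak site's value. Sites at 3-fold or more at 36 h were mostly those that began high: 14 of the 15 regions at 10-fold or more at 12 h, 17 of 42 from 6 to under 10, and 3 of each of the lower groups of 59 and 117.

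**Figure D2:**
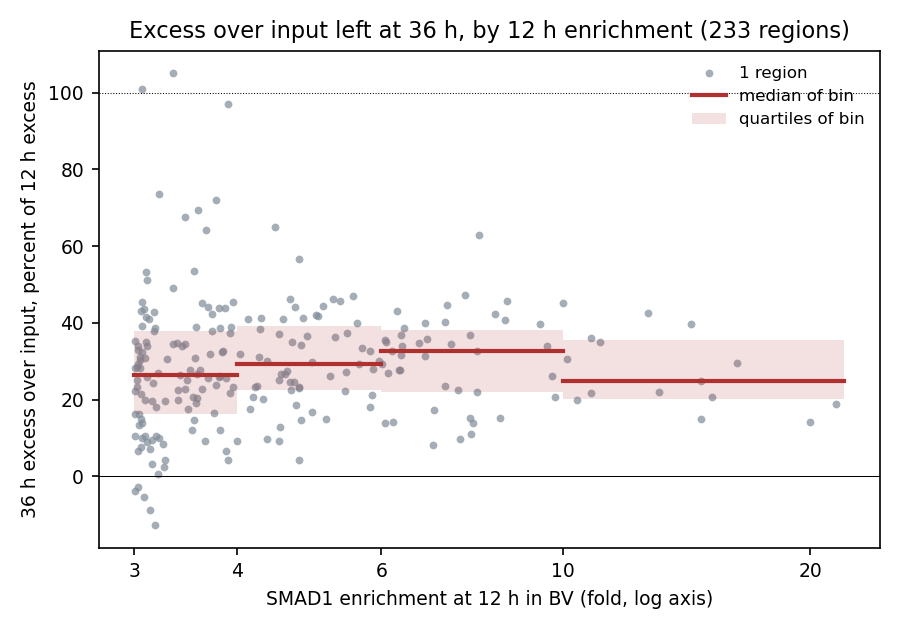
Share of the 12 h excess over input that was left at 36 h (y axis, percent) against 12 h enrichment (x axis, fold, log axis) at the 233 regions at 3-fold or more at 12 h. Red lines are the medians of 4 groups by 12 h enrichment and shading their quartiles, and the medians lie between 24.9 and 32.7% in all 4 groups while single regions spread most at the weak end.

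How far a site can be called lost is set by depth. With the exact Poisson interval of the 36 h count, 197 of the 233 regions (84.5%) stood above the input level of 1 at 36 h, against 4.89% of all usable windows. All 57 regions at 6-fold or more at 12 h were among the 197. The other 36 were all in the group under 1.5-fold, where the median region held 16 reads at 36 h and 63.5 at 12 h. Of the 48 regions in that group, 36 had the upper end of the interval below 2-fold, and these are not all the same 36. The regions with the lowest 36 h value were chr2:90234001-90237001, which measured 3.18 at 12 h and 0.723 at 36 h, and chr12:73741001-73743001, which measured 3.14 and 0.815. Both had been near the threshold at 12 h.

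The 10 strongest regions at 12 h ranged from 11.1 to 21.5 and were all lower at 36 h, where they ranged from 3.06 to 6.27. The strongest, chr7:52429001-52433001, measured 21.5 at 12 h (438 reads, against 98 in the input), 4.58 at 24 h and 4.89 at 36 h (77 reads). The plain ratio there was 0.215 (0.166 to 0.274). The next, chr7:134753001-134758001, measured 20.0, 8.19 and 3.72 in the same order, with a ratio of 0.170 (0.126 to 0.226). These top regions thus took different courses, the first already low at 24 h and the second lower again after 24 h.

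The region chr7:30935001-30940001 measured 16.3, then 7.24 and then 5.52. The region chr2:104657001-104661001 measured 15.2, 3.75 and 3.91, and chr7:24888001-24893001 measured 14.7, 5.57 and 4.43. Among the 10, the lowest value at 36 h was that of chr11:96733001-96736001, which went from 14.7 to 4.25 and then 3.06 (ratio 0.193, 0.144 to 0.254). Some of its neighbours in rank kept more.

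One of them, chr11:121718001-121723001, measured 14.3, 7.94 and 6.27 (ratio 0.427, 0.348 to 0.521). Another, chr11:22871001-22874001, measured 12.7, 7.53 and 5.96 (0.457, 0.362 to 0.572). The last of the 10, chr11:50712001-50716001, measured 11.1, 4.89 and 4.54, and chr9:22081001-22085001 measured 13.1, 5.95 and 3.65. The intervals of chr11:121718001-121723001 and chr11:22871001-22874001 do not meet that of chr11:96733001-96736001 on the same chromosome.

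**Figure D3:**
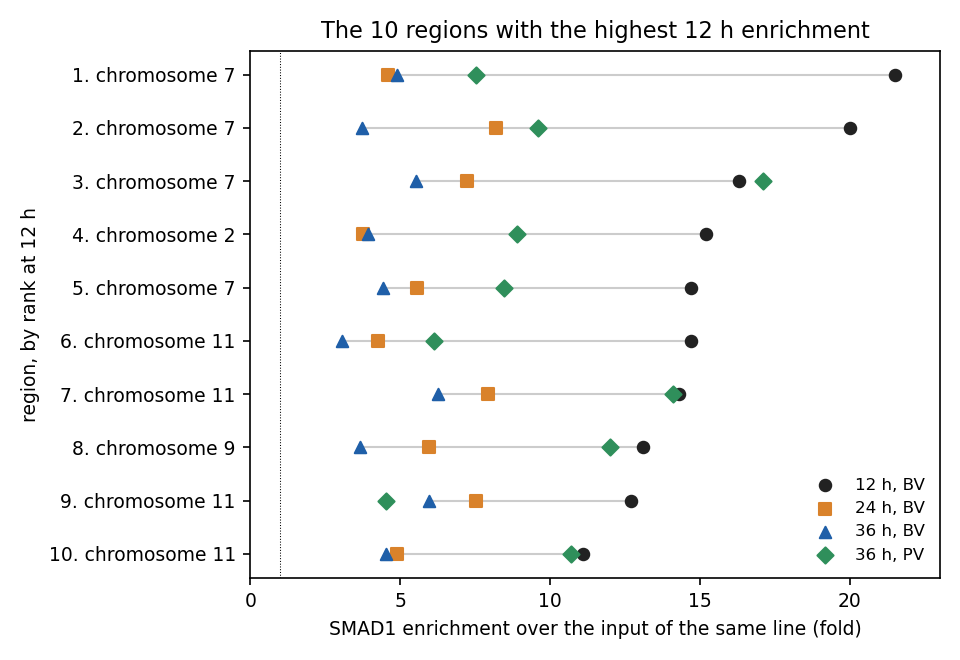
Enrichment over the input of the same line (x axis, fold) at the 10 regions with the highest 12 h value (y axis, ranked), with 1 point per SMAD1 library and a grey line from the 36 h to the 12 h value in BV. At all 10 the 36 h value in BV, from 3.06 to 6.27, lies well left of the 12 h value, from 11.1 to 21.5.

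Which sites kept most was read among the 57 regions at 6-fold or more at 12 h. The highest share was at chr11:120091001-120095001, which measured 7.89, 4.33 and 5.34 in the 12, 24 and 36 h libraries, so that 63.0% of its excess was left (plain ratio 0.663, 0.515 to 0.851). It was also the region where TCF1, the WNT-responsive factor profiled in the same line, was highest, at 4.19. High TCF1 did not in general go with a larger share left. Among all regions at 3-fold or more at 12 h, the 11 with TCF1 at 2-fold or more had a median of 12.8% left. The median was 28.3% in the 222 with lower TCF1, and this difference was not tested. Of the 11, 6 belong to the group held until 24 h that is described below, with shares left from 4.38 to 32.5%. In the rest of the 11 the share left ran from -2.71 to 63.0%. The next highest share, 47.2%, was at chr12:20904001-20908001 (7.59 at 12 h and 4.12 at 36 h). Its scaled input was low, at 0.300 as a mean of the 3 inputs, with 50 reads in the BV input against 112 in a typical window.

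Next came chr2:174120001-174127001 with 45.8% (8.55, 5.71 and 4.46), which at 7 kb was one of the widest regions. It was followed by chr6:30686001-30690001 with 45.3% (10.0, 5.35 and 5.08) and chr17:29297001-29301001 with 44.7% (7.22, 5.54 and 3.78). T, the mesodermal factor Brachyury, stood at 2.57 at chr6:30686001-30690001 and 2.32 at chr2:174120001-174127001 in PV. Among all regions at 3-fold or more at 12 h, the median share left was 32.5% in the 9 with T at 2-fold or more. The median was 27.9% in the 224 with lower T, and this difference was not tested.

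The lowest shares among the 57 were several times smaller. At chr1:88356001-88359001 SMAD1 measured 6.94, 2.26 and 1.48, leaving 8.08% (plain ratio 0.168, 0.0964 to 0.276). At chr6:47973001-47977001 it was 7.49, 3.86 and 1.63, leaving 9.71% (0.177, 0.106 to 0.281). At chr7:89918001-89922001 it was 7.72, 7.20 and 1.74, leaving 11%. This last site was as high at 24 h as at 12 h, unlike the other sites that lost most.

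At chr6:149310001-149313001 the values were 7.77, 2.32 and 1.94 (13.9% left), and at chr1:173419001-173422001 they were 6.06, 3.49 and 1.71 (14%). Counting error alone was compared with this spread. If every region had kept the median share of 28.0%, the plain ratio expected from its 12 h count lay inside the exact interval in 39 of the 57 regions, below the interval in 10 (the site kept more) and above it in 8 (the site kept less). Over all 233 regions it lay inside in 195, while 21 sites kept more and 17 kept less. The 12 h count was taken as fixed in this comparison. The 28.0% is the median of the 233 regions themselves, so sites on both sides of it follow in part from the choice. Whether more fell outside than counting error gives was not tested.

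Sites were narrow at both times. The median region was 3 kb wide, with 2 kb the least possible. At the 37 regions that kept 3-fold, mean enrichment at the summit window was 9.55 at 12 h and 3.94 at 36 h, and 2 kb to either side it was 2.06 and 2.05 at 12 h and 1.42 and 1.44 at 36 h. At the 126 regions under 2-fold at 36 h the summit means were 3.75 and 1.55. The mean profile at 36 h was therefore lower over the same few kilobases, with its highest window in the same place, although summit windows were chosen on the mean of these 2 libraries.

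**Figure D4:**
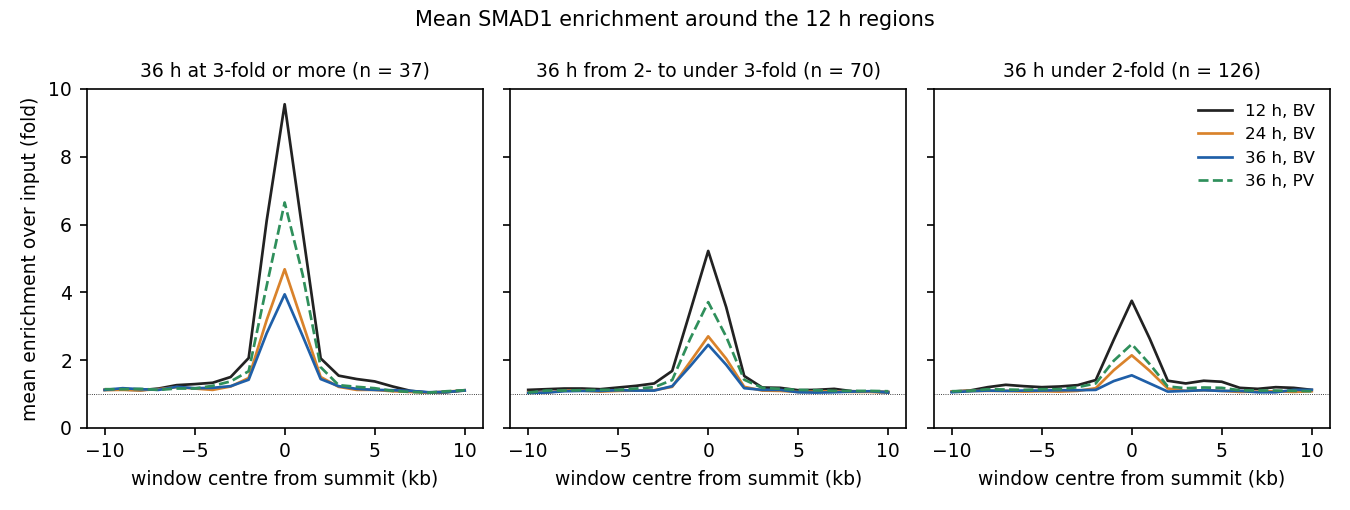
Mean enrichment over the input of the same line (y axis, fold) by distance of the window centre from the summit window (x axis, kb), for the 233 regions split by their 36 h enrichment in BV. At the summit of the 37 regions that kept 3-fold the mean in BV is 9.55 at 12 h, 4.68 at 24 h and 3.94 at 36 h, with 6.65 in PV, and all 4 curves are back near 1 within 10 kb.

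The 24 h library, which did not choose the regions, lay between the other times at 166 of the 233 regions, with a median enrichment of 2.29 against 3.96 at 12 h and 1.92 at 36 h. It was below the 36 h value at 62 regions, chr7:52429001-52433001 and chr2:104657001-104661001 among them, and above the 12 h value at 5. The counts at 2-fold or more were 147 of 233 at 24 h and 107 at 36 h, against 0.0331% and 0.0500% of all usable windows. In the PV line at 36 h, 178 of the 233 were at 2-fold or more over the PV input, against 0.0520% of windows, and the median was 2.90. PV was above 36 h in BV at 200 of the 233 regions and above 12 h in BV at 26. No share over all usable windows is given for the order of the libraries, at 24 h or in PV. These counts of order therefore only describe the 233 regions.

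The regions with the highest level at 36 h in BV also had the highest medians in PV, and they had been the strongest at 12 h. Median PV enrichment was 5.78 at the regions at 3-fold or more at 36 h in BV, 3.62 at those from 2 to under 3, 2.61 at those from 1.5 to under 2 and 1.86 at those under 1.5. Across the 233 regions Spearman's rho between 36 h in BV and 36 h in PV was 0.705, although these libraries share no input. It was 0.719 between 12 h in BV and PV and 0.730 between 12 h and 36 h in BV, which share the BV input. These values describe regions, which share libraries and were chosen mainly at 12 h.

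At 3-fold or more, a choice of regions by either of the other SMAD1 libraries gave nearly the same factor. The sites chosen were mostly the same. Of the 88 regions chosen by 24 h and the 135 by PV, 67 and 114 were at 3-fold or more at 12 h. At a threshold of 2 the factor was 0.718 at regions chosen by 24 h and 0.728 at those chosen by PV, against 0.581 at 12 h regions. At the 135 regions at 3-fold or more in PV at 36 h (0.0116% of windows), SMAD1 in BV had a median of 5.03 at 12 h and 2.36 at 36 h. The median factor was 0.476 (0.443 to 0.507), with 129 of the 135 lower at 36 h and 77 lower by 2-fold or more. The interval of the plain ratio lay wholly below 1 in 118 of the 135 and included 1 in 17. In the 18 strongest of these, at 6-fold or more in PV, the medians were 11 at 12 h and 3.86 at 36 h. At the 88 regions at 3-fold or more at 24 h (0.00754% of windows) the factor was 0.460 (0.420 to 0.494), with 77 lower. The interval lay wholly below 1 in 71 of the 88, included 1 in 16 and lay above 1 in 1.

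At a small group of sites a lower 36 h value was not clear of counting error. In 14 regions the exact interval of the plain ratio included 1, and these were picked out after their values were seen. Only 10 of them were at 3-fold or more at 12 h. The rest are chr4:135696001-135698001, chr8:93352001-93354001, chr12:117298001-117300001 and chr13:48357001-48359001. They were at 3-fold only at 36 h, so a 36 h value above 12 h followed from the choice. An interval that includes 1 can also come from few reads. At chr12:25782001-25785001 SMAD1 measured 3.90, 3.34 and 3.82 in time order in BV, with 4.27 in PV, and the plain ratio was 0.977 (0.684 to 1.39). At chr13:48322001-48324001 it measured 3.35, 2.92 and 3.47, with 2.73 in PV (1.04, 0.705 to 1.53). A second region close by on the same chromosome, chr13:48357001-48359001, measured 2.39, 2.71 and 3.03 (1.32, 0.823 to 2.12). Enrichment at these sites lay between 2.02 and 4.27 in all 4 SMAD1 libraries.

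The region chr4:135696001-135698001 measured 2.59, 2.42 and 3.46 in BV and 2.90 in PV (1.38, 0.940 to 2.03). At chr5:119535001-119537001 the values were 3.07, 2.59, 3.09 and 2.83, and at chr8:93352001-93354001 they were 2.24, 2.42, 3.11 and 3.28. At chr12:117298001-117300001 they were 2.85, 2.41, 3.12 and 3.24. The other 7 regions of the group had plain ratios between 0.625 and 0.787, with upper ends of the interval between 1.01 and 1.28, and PV values between 1.62 and 3.60.

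Medians over the 14 in BV were 3.28, 2.42 and 3.06 for the 12, 24 and 36 h libraries, with 2.86 in PV, and the 36 h value was above the 24 h value in 14 of 14. The 122 regions that were lower at 36 h and under 4.5-fold at 12 h had a similar 12 h median of 3.35, then 1.88 and 1.63, with 2.24 in PV. PV exceeded 36 h in BV at 5 of the 14 and at 104 of the 122. The 36 h values of both groups follow from how they were split, whereas the 24 h and PV values do not enter the split. The counts of 36 h against 24 h and of PV against 36 h therefore follow in part from the split. T medians were 1.13 and 1.18, and TCF1 medians 1.10 and 1.08.

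**Figure D5:**
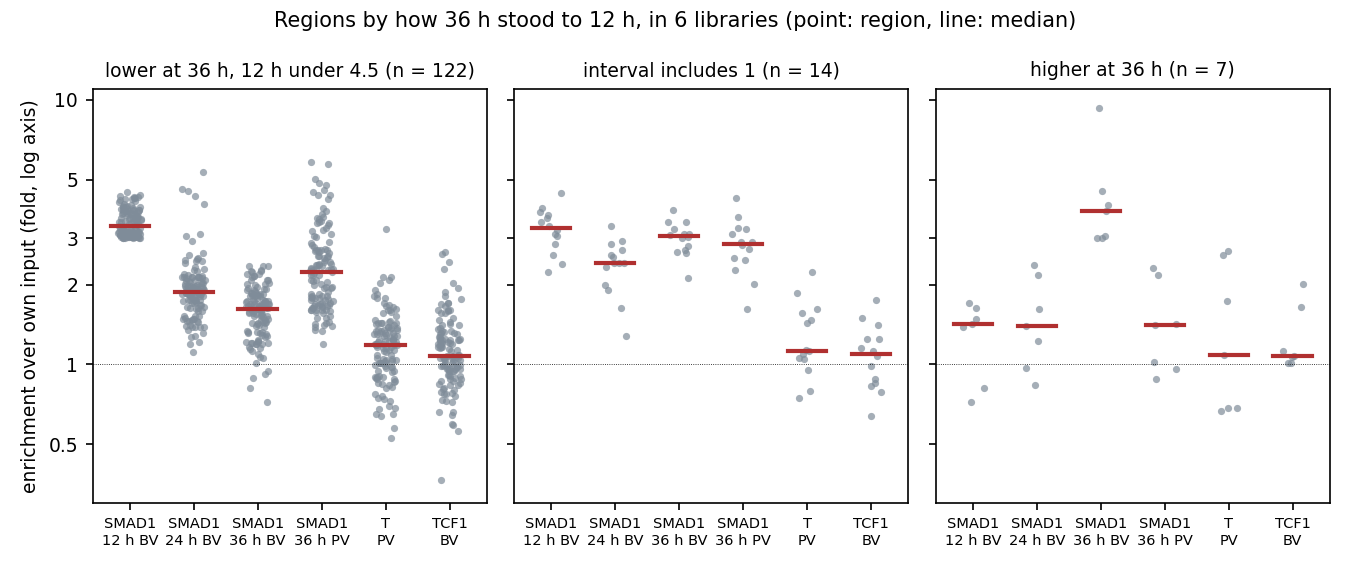
Enrichment over the input of the same line (y axis, fold, log axis) in 4 SMAD1 libraries, T and TCF1 (x axis), with 1 point per region and a red line at the median, for regions lower at 36 h with 12 h under 4.5, regions whose ratio interval includes 1, and regions higher at 36 h. The middle group has medians from 2.42 to 3.28 across the SMAD1 libraries, lowest at 24 h, and the right group is high at 36 h in BV with medians of 1.40 to 1.42 in the other SMAD1 libraries.

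In 7 regions the exact interval of the plain ratio lay wholly above 1, and all 7 were under 2-fold at 12 h. They were chosen by their 36 h value, so this interval is a description of them. In the genome 2.60% of usable windows had an interval wholly above 1, and 0.686% were higher by 2-fold or more. Of the 7, 2 were also above 2-fold at 24 h and in PV. These were chr10:60277001-60279001, with 1.71, 2.38 and 3.8 in time order and 2.31 in PV, and chr14:52639001-52641001, with 1.63, 2.18, 3.01 and 2.18. At both of them T was enriched too, at 2.69 and 2.60.

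The other 5 were raised in the 36 h library of BV and stayed under 2-fold in the other SMAD1 libraries. The highest 36 h value of all, 9.35, was at chr10:82109001-82112001, with 127 reads against 5 at 12 h (plain ratio 31.0, 12.9 to 97.1) and enrichments of 0.722 and 0.839 in the earlier BV libraries and 0.881 in PV. At chr14:71047001-71050001 the values were 1.38, 1.62, 4.54 and 1.02, and TCF1 measured 2.02. At chr12:111060001-111063001 they were 1.42, 1.23, 3.99 and 1.41. In each case the 36 h library of BV alone among the SMAD1 libraries was raised.

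At chr10:23902001-23904001 the enrichment was 0.815, 0.966 and 3.01 in BV and 0.964 in PV. At chr18:76840001-76842001 it was 1.48, 1.40, 3.05 and 1.42, with T at 1.74. All of these regions rest on 41 to 127 reads of a single library.

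Another group was held until 24 h and lower at 36 h. In 8 regions the 24 h enrichment was at least 0.9 of the 12 h value while the 36 h ratio lay wholly below 1, a rule set after the values were seen. Besides chr7:89918001-89922001, they included chr16:57390001-57393001, with 4.76, 5.26 and 1.16, and chr18:68850001-68853001, with 4.35, 5.34 and 1.32. At chr13:97959001-97962001 the values were 4.00, 4.52 and 1.28. The least reduced of the 8, chr6:48546001-48549001, measured 4.28, 4.05 and 2.35 and kept 41.2% of its excess. Medians over the 8 were 4.32, 4.57 and 1.39 in BV and 2.56 in PV.

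This group also differed in other readouts. Its median scaled input was 1.86, against 0.942 over all 223 regions lower at 36 h, and TCF1 was at 2-fold or more in 6 of the 8 and T in 4. Over the 244 regions, 12 (4.92%) had TCF1 at 2-fold or more and 12 had T, against 0.102% and 0.428% of all usable windows. The part of the high input and of the TCF1 and T signal in these values was not tested.

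The regions lay unevenly along the chromosomes. Regions at 3-fold at 12 h were densest on chromosome 13 (26, or 2.40 per 10 Mb of usable windows), chromosome 17 (19, 2.21) and chromosome 7 (27, 2.17). The median factor by chromosome lay between 0.370 on chromosome 9 (7 regions) and 0.545 on chromosome 19 (3 regions). Chromosomes 1 and 18, with 10 regions each, kept none at 3-fold, and chromosome 7 kept 7 of 27.

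Chromosome 11 kept 7 of 13 at 3-fold, the highest share. The 36 h library held more reads over the whole of this chromosome, with a mean level of 1.34 over windows of typical input, against 1.17 at 12 h and 1.21 in the BV input, and a median factor of 1.11 over all its usable windows. On its own scale chromosome 11 kept 4 of 13, and its median share of excess left was 29.9% in place of 35.0%. The enrichments there became 12.3 and 5.12 at chr11:22871001-22874001, 14 and 5.42 at chr11:121718001-121723001, and 7.69 and 4.61 at chr11:120091001-120095001. The last of these still kept 54.0% of its excess.

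Some sites came in runs, though the number expected from their density was not worked out. When regions up to 500 kb apart were chained, 97 of the 244 had a neighbour, and 9 chains held 4 or more regions, 38 in all. On chromosome 17 a chain of 4 from 17109001 to 17404001 measured 5.09 to 7.18 at 12 h and 2.82 to 3.48 at 36 h, keeping between 35.9 and 44.4% of the excess. On chromosome 5 a chain of 4 from 105010001 to 105317001 measured 6.07 to 10.8 and 2.69 to 4.54, keeping between 31.6 and 36.1%. The range of shares was narrow in these chains and wider in most others.

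The widest range, from 24.3 to 72.0%, was in a chain of 4 on chromosome 4 from 146706001 to 147202001. On chromosome 13 a chain of 4 from 66381001 to 66700001 kept between 25.2 and 67.6%, and on chromosome 17 a chain of 4 from 22064001 to 22916001 kept between 36.3 and 73.5%. A second chain of chromosome 5, of 5 regions from 110104001 to 110509001, kept between 15.3 and 38.7%. Another chain of chromosome 13, of 5 regions from 61961001 to 62877001, measured 3.81 to 5.00 at 12 h and 1.74 to 2.68 at 36 h. Over the 37 chained regions at 3-fold at 12 h, the median share left was 36.1%, against 26.8% in the other 196, with 12 h medians of 4.13 and 3.96. The counts at 3-fold at 36 h were 6 of 37 and 31 of 196. No chained region of the 9 chains was under 1.5-fold at 36 h, against 48 of the other 196, and chains were defined after the values were seen.

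Near the threshold the split is fine. The 12 h windows just inside it measured 3.004 and 3.005 and those just outside 2.995 and 2.992, and at 36 h the nearest values were 3.001 and 2.996.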

How the data were processed

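The authors deposited raw read counts per window of 2 kb, stepping by 1 kb. The submitters' processing notes name Bowtie 0.12.8 and mm9. How duplicate reads were handled is not stated in those sources. A mean of 1 over 1977886 autosomal windows, from the 10th to the 90th percentile of mean input (3 inputs), set the scale of each library. Windows needed a mean scaled input of at least 0.25 and no input above 3, which left 2240703 of 2472353 (90.6%). The summit of a region, where it was measured, was its window of highest log2 enrichment averaged over 12 h and 36 h. PV libraries were set over the PV input. Ratio intervals are Clopper-Pearson 95% intervals, and single counts have exact Poisson intervals. These cover counting error only, since PCR copies are not independent molecules. Intervals of shares of regions (Clopper-Pearson) and of medians (binomial ranks) take regions as independent. Regions of the same libraries are not replicates, so those intervals give no error of the time comparison. Regions named are the 10 highest at 12 h and at 36 h, the 5 that kept most and least among those at 6-fold or more at 12 h, and all at 3-fold at 36 h with under 2-fold at 12 h. The regions with the lowest 36 h value were named outside these rules, and groups picked later are marked as such. The members and lists were chosen with earlier results of these data known. The script was tested on simulated data. Tools were Python 3.11.15, numpy 2.4.6, pandas 2.3.3, scipy 1.17.1 and matplotlib 3.10.9. Gene tables of another build were not used to place genes, and chromosomes Y and M were not analysed here.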

Additional observations from a re-analysis of the deposited data

Results flagged for a closer look

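Chromosome X lay outside the comparison, which was limited to autosomes. With the same scaling it held 5 windows at 3-fold or more at 12 h and 0 at 36 h among 122512 usable windows, whereas the PV and BVSC inputs thinned to the 12 h depth reached 3-fold in 1 and 0 windows. They formed 2 regions that lie close together. At chrX:20606001-20610001 SMAD1 measured 6.30 at 12 h (102 reads), 4.34 at 24 h, 2.68 at 36 h (32 reads) and 6.16 in PV, a factor of 0.426 (plain ratio 0.383, exact interval 0.249 to 0.575). At chrX:20658001-20661001 the values were 3.32, 1.95, 1.84 and 5.18, a factor of 0.554 (plain ratio 0.483, 0.268 to 0.838).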

How the results depend on the processing

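The median factor at the 12 h regions stayed between 0.417 and 0.581 in every alternative, and it was moved only by a threshold of 2 (0.581), a threshold of 4 (0.417) and the PV input for both libraries (0.470). A threshold of 2 gave 3174 regions, of which 6.85% of those called at 12 h held it at 36 h, 67.6% were under 1.5-fold and 707 were at 2-fold at 36 h only. With it the factor was 0.718 at regions chosen by 24 h and 0.728 at those chosen by PV. A threshold of 4 gave 118 regions, 5.17% under 1.5-fold, and 2 at 36 h with under 2-fold at 12 h. A pseudocount of 0.25 gave 447 regions, 27.3% under 1.5-fold and 18 at 36 h with under 2-fold at 12 h, and a pseudocount of 1 gave 144, 14.9% and 3. The PV input gave 15 such 36 h regions. Scaling by total count or by chromosome moved no share or median at the 12 h regions past its interval over regions. Nor did thinning 12 h to the 36 h depth, other input filters, leaving out chromosome 11 or measuring at the highest 12 h window. No count of regions changed by more than 1.5 times in these settings. The count of regions not lower at 36 h, 21, was added after seeing the data. It was 1699 and 3 at thresholds of 2 and 4, 85 and 7 at pseudocounts of 0.25 and 1, and 61 with the PV input. For the 28 named regions, all 168 factors over the 6 alternatives that could change them stayed inside the counting interval. The input cancels in the factor at a fixed window, so the 84 values under another input or input filter were fixed by construction. No paired analysis was possible because each group has 1 library. At 12.4 reads in a typical window at 36 h, values of single regions between 1 and 2-fold cannot be ordered, and the counts under 1.5-fold carry this limit.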
